A study of Homo sapiens with 4 samples.

Results

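The 8 genes described here encode the enzymes that hydroxylate collagen inside the ER, together with the chaperone that receives the hydroxylated product. They are the prolyl 4-hydroxylase α subunits P4HA1, P4HA2 and P4HA3, the shared β subunit P4HB, the lysyl hydroxylases PLOD1, PLOD2 and PLOD3, and the collagen chaperone SERPINH1 (HSP47). The members are the probe sets whose annotation names one of these genes alone. The genes were chosen with earlier results of these data known. Where a gene has several probe sets, the one with the highest mean stands for it. This gave 9 of the 33297 probe sets on the array and 8 of the 18417 genes with a value. P4HB has 2 probe sets and both are given, and every other gene has 1.

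Procollagen chains enter the ER during their synthesis and are hydroxylated there before they fold. Prolyl 4-hydroxylase makes the 4-hydroxyproline that keeps the triple helix stable at body temperature, and it is a tetramer of α subunits, which carry the active site, and β subunits, which are protein disulfide isomerase. Lysyl hydroxylases make the hydroxylysine used for sugar attachment and for cross-links between collagen molecules, and SERPINH1 binds the folded helix and escorts it out of the ER. All of the hydroxylases except the β subunit are dioxygenases that consume molecular oxygen, 2-oxoglutarate, iron and ascorbate, and P4HA1, P4HA2 and PLOD2 are known target genes of the hypoxia-inducible factor HIF-1.

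The values come from HT1080 cells, a human fibrosarcoma line with mesenchymal features, on 4 Affymetrix Human Gene ST arrays. The groups are ER-RNA in hypoxia, ER-RNA under control conditions, total RNA in hypoxia and total RNA under control conditions, where hypoxia means 36 h at 1% oxygen and control means 36 h at 21% oxygen. All cells were of this line and stood in low serum (0.4%) throughout the incubation and for 24 h or longer before it, and the methods describe a short cycloheximide treatment, which holds ribosomes on mRNA, before fractions such as the ER were prepared. Each array was loaded with RNA pooled from 5 experiments, so each group has 1 value per gene, differences between experiments are not visible, and values are given with no p and no error.

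The comparison of hypoxia with control within each fraction asks which of these transcripts changed in total RNA and which changed in the RNA recovered with the ER fraction. Expression in a fraction required a value above the array's own 50% quantile on 1 or both of its arrays. A change was called at more than 1.4-fold with a z-score beyond 3 in either direction. The z-score is the log2 fold change divided by the SD within hypoxia and control pairs, smoothed over the mean. It is no count of SDs of the fold change. With the scaled median absolute deviation of the fold changes as SD, the z-scores in ER-RNA were 2.29 for P4HA1, 2.01 for P4HA2 and 3.19 for PLOD2. The SD is fitted across probe sets, so a call ranks a gene against probe sets of like intensity and is no test against biological replicates. Of the markers checked, 7 of 7 mesenchymal genes were expressed in ER-RNA and 6 of 7 in total RNA, epithelial markers in 1 of 5 cases in each fraction (KRT19), and blood markers in 0 of 4. Of the mesenchymal genes, the filament protein VIM was called up in hypoxia (1.49-fold in ER-RNA, 1.51-fold in total RNA, in 7 of 10 settings each and not with median centring) and the matrix protein SPARC was called down (0.527-fold in ER-RNA, 0.642-fold in total RNA).

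The sequence in front of these genes is shown because HIF binds hypoxia response elements, whose core is ACGTG or GCGTG. Promoter windows of 300 bases, from 250 before to 50 after the annotated start, were taken from RefSeq (build GRCh38.p14), and 7 of the 8 members, all but P4HA3, matched a window. SERPINH1 matched windows at 2 starts. The cores were searched on both strands, so ACGTG on the opposite strand is read as CACGT. One or more cores lay in the windows of 5 members, against 48.4% of 35116 promoter windows of the same length. ACGTG was found in 3 members, against 21.4% of windows, and GCGTG in 4 members, against 36.5% of windows. The stretches of 30 bases around the cores are printed on the strand of the gene, with the core in capitals.
P4HA1, chr10:73096935-73096964, minus strand: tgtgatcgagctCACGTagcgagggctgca
P4HB, chr17:81860607-81860636, minus strand: ggccccagcggcGCGTGcgcgccgcggcca
PLOD1, chr1:11934637-11934666, plus strand: gcgcgggggaggGCGTGgaggggcggggtg
PLOD1, chr1:11934680-11934709, plus strand: ggcgggcccagtGCGTGgcagcgggacctg
PLOD2, chr3:146161380-146161409, minus strand: gccagaagcgctGCGTGagcctccacacgt
PLOD2, chr3:146161367-146161396, minus strand: cgtgagcctccaCACGTagccgcaggcagc
PLOD2, chr3:146161313-146161342, minus strand: caaacagtccagACGTGgggcccaggaggg
SERPINH1, chr11:75562277-75562306, plus strand: gagagcgagagtCACGTcccggcgctagcc

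PLOD2 held 3 cores, at 213, 200 and 146 bases before its start, and the window at the downstream start of SERPINH1 also held 3. Of all windows, 10.1% held 3 or more. P4HA1 held its only core 86 bases before the start, P4HB held 1 at 89 bases, and PLOD1 held 2 at 68 and 25 bases. The SERPINH1 site printed above lies 36 bases after the upstream start and 184 bases before the downstream start. The other 2 cores of the downstream window were overlapping GCGTG cores. The windows of P4HA2 and PLOD3 held 0 cores. P4HA1 and PLOD2 held cores and were called up, and P4HB, PLOD1 and SERPINH1 held cores and were not called. P4HA2 was called up with 0 cores in its window, and PLOD3 had 0 cores and was not called. The P4HA2 window was 55.7% G and C, against 67.3% to 73.7% in the other windows. Sequence outside the windows or at other starts was not searched, and a relation between cores and calls was not tested. A match of letters is a description of the window and not a binding site.

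**Figure D1:**
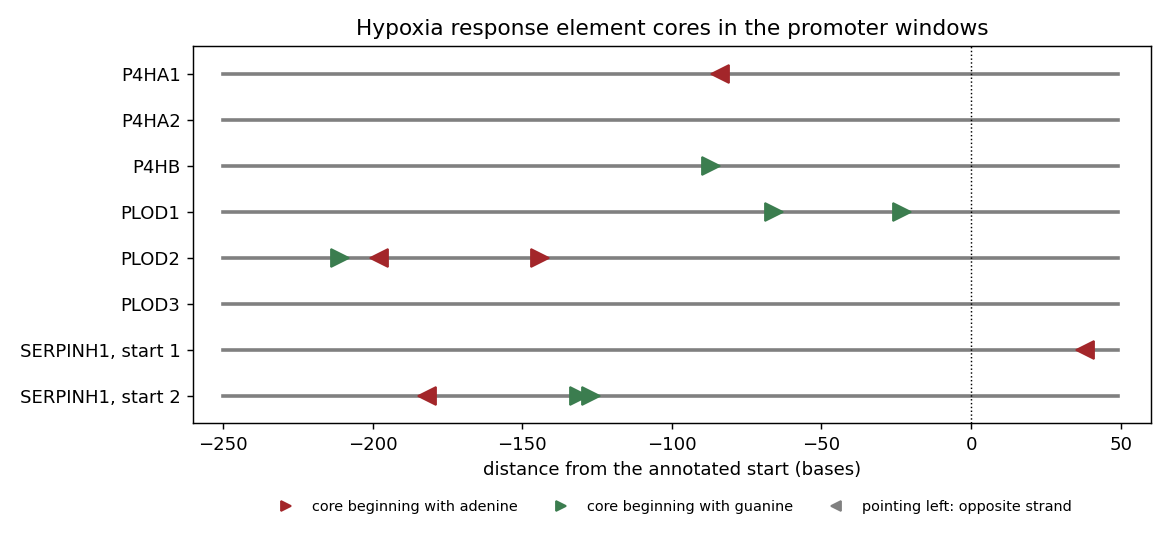
Each grey bar is a promoter window, drawn by distance from the annotated start in bases (dotted line at 0), and each triangle is a hypoxia response element core, pointing left where it lies on the opposite strand. PLOD2 holds 3 cores upstream of its start, as does SERPINH1 at its downstream start, P4HA1 and P4HB hold 1 each, and P4HA2 and PLOD3 hold 0.

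Of the 8 genes, P4HA1, P4HA2 and PLOD2 were called up in hypoxia, in ER-RNA and in total RNA alike. Of all expressed probe sets, 1.55% were called up in ER-RNA and 3.27% in total RNA. No member was called down in either fraction, where the shares over all expressed probe sets were 7.31% in ER-RNA and 6.39% in total RNA. All members except P4HA3 were expressed, and the 8 had a median log2 fold change of 0.79 in ER-RNA and of 0.51 in total RNA, beside -0.057 in ER-RNA and -0.061 in total RNA over 10851 genes expressed in both fractions. Arrays of bulk RNA cannot tell apart fewer cells that express a gene from less RNA per cell.

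**Figure D2:**
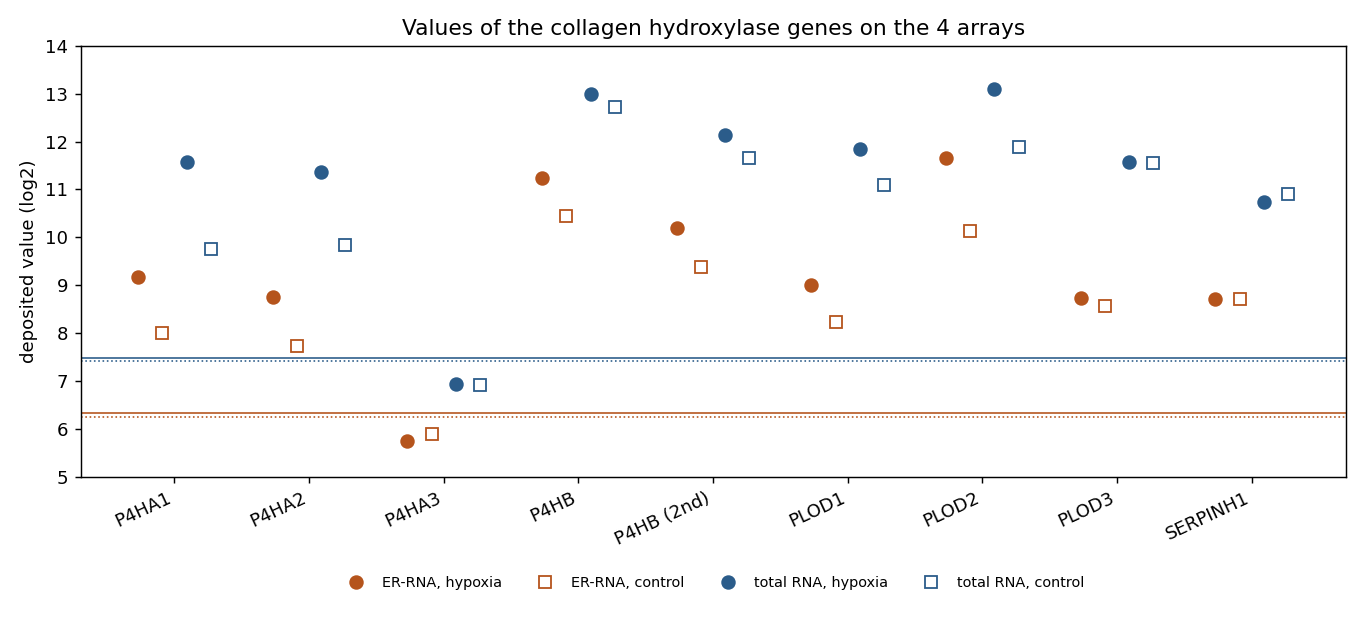
Deposited log2 value (y axis) of each probe set on each of the 4 arrays, with filled circles for hypoxia, open squares for control, orange for ER-RNA and blue for total RNA, and lines at the median of each array (solid for hypoxia, dotted for control). P4HA1, P4HA2 and PLOD2 lie more than 1 log2 unit higher in hypoxia than in control in both fractions, and P4HA3 is the only gene below all 4 medians.

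Among the α subunits, which carry the catalytic site, P4HA1 (probe set 7934278) had a log2 value of 9.18 in hypoxic ER-RNA, against 7.99 in control ER-RNA. In total RNA its log2 value was 11.57 in hypoxia, against 9.76 under control conditions. Hypoxia was the higher condition in both fractions, by 2.28-fold in ER-RNA (log2 fold change 1.19, z-score 3.79) and by 3.50-fold in total RNA (log2 fold change 1.81, z-score 6.53). Counted from the largest rise among expressed genes, P4HA1 stood at place 52 of 11876 in ER-RNA and at place 24 of 11530 in total RNA.

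P4HA2 (probe set 8113981), the α subunit prominent in cartilage and bone, followed the same pattern at a smaller size. Its log2 value was 8.75 in hypoxic ER-RNA, against 7.73 in control ER-RNA, and 11.36 in hypoxic total RNA, against 9.84 in control total RNA. The rise was 2.03-fold in ER-RNA (log2 fold change 1.02, z-score 3.40) and 2.88-fold in total RNA (log2 fold change 1.53, z-score 5.50). The call in ER-RNA was lost when each array was centred on its median, where the log2 fold change was 0.94, and both P4HA1 and P4HA2 lost it when the SD came from the scaled median absolute deviation.

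P4HA3 (probe set 7950374), the least widely expressed α subunit, was below the expression filter in both fractions. Its log2 values were 5.74 in hypoxic ER-RNA, 5.88 in control ER-RNA, 6.94 in hypoxic total RNA and 6.91 in control total RNA. All 4 lay below the median of their array, and the log2 fold changes of -0.15 in ER-RNA and 0.026 in total RNA were not called.

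P4HB, the β subunit, also serves the cell as protein disulfide isomerase and did not pass the call in either fraction as reported. Its brighter probe set (8019250) had a log2 value of 11.25 in hypoxic ER-RNA, against 10.45 in control ER-RNA, and 13.00 in hypoxic total RNA, against 12.73 in control total RNA. This was 1.74-fold in the ER fraction (z-score 2.67) and 1.20-fold in total RNA (z-score 1.60). The second probe set (8019762) gave 10.21 in hypoxic ER-RNA, against 9.38 in control ER-RNA, and 12.14 in hypoxic total RNA, against 11.65 in control total RNA, with fold changes of 1.77 (z-score 2.55) and 1.41 (z-score 2.10). Both probe sets were higher in hypoxia in both fractions, passed the fold threshold in ER-RNA and stayed short of the z-score threshold. In total RNA the second probe set alone passed the fold threshold. The brighter probe set was called up in ER-RNA in 3 of the 10 settings, one of them loess within the pair, and in total RNA in 0 of them.

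Among the lysyl hydroxylases, PLOD2 (probe set 8091283), which hydroxylates the telopeptide lysines used for stable cross-links, changed most. Its log2 value was 11.66 in hypoxic ER-RNA, against 10.14 in control ER-RNA, and 13.11 in hypoxic total RNA, against 11.89 in control total RNA. The rise was 2.86-fold in ER-RNA (log2 fold change 1.52, z-score 5.12), place 29 of 11876 genes, and 2.32-fold in total RNA (log2 fold change 1.21, z-score 6.22), place 91 of 11530. PLOD2 was the only member called up in ER-RNA under every one of the 10 settings run, and P4HA1, P4HA2 and PLOD2 were all called up in total RNA under the same 10.

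PLOD1 (probe set 7897803), which hydroxylates lysines in the helical part of the chain, was not called in either fraction and was just short of a call in total RNA. Its log2 value was 9.01 in hypoxic ER-RNA, against 8.22 in control ER-RNA, and 11.84 in hypoxic total RNA, against 11.09 in control total RNA. This was 1.73-fold in the ER fraction (z-score 2.51) and 1.69-fold in total RNA (z-score 2.96, where 3 is the threshold). It was called up in total RNA in 3 of the 10 settings and in ER-RNA in 2 of them.

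PLOD3 (probe set 8141688), which also carries the glycosyltransferase activities that add sugars to hydroxylysine, was nearly level. Its log2 value was 8.73 in hypoxic ER-RNA, against 8.56 in control ER-RNA, and 11.58 in hypoxic total RNA, against 11.55 in control total RNA, which is 1.12-fold and 1.02-fold. SERPINH1 (probe set 7942596), the collagen chaperone, had a log2 value of 8.72 in hypoxic ER-RNA, against 8.71 in control ER-RNA, and 10.74 in hypoxic total RNA, against 10.91 in control total RNA. Its fold changes were 1.01 in ER-RNA and 0.888 in total RNA. Neither gene was called in any of the 10 settings, and the sign of both is open to scaling, since centring on the array median gave log2 fold changes of -0.042 for PLOD3 in total RNA and -0.075 for SERPINH1 in ER-RNA.

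**Figure D3:**
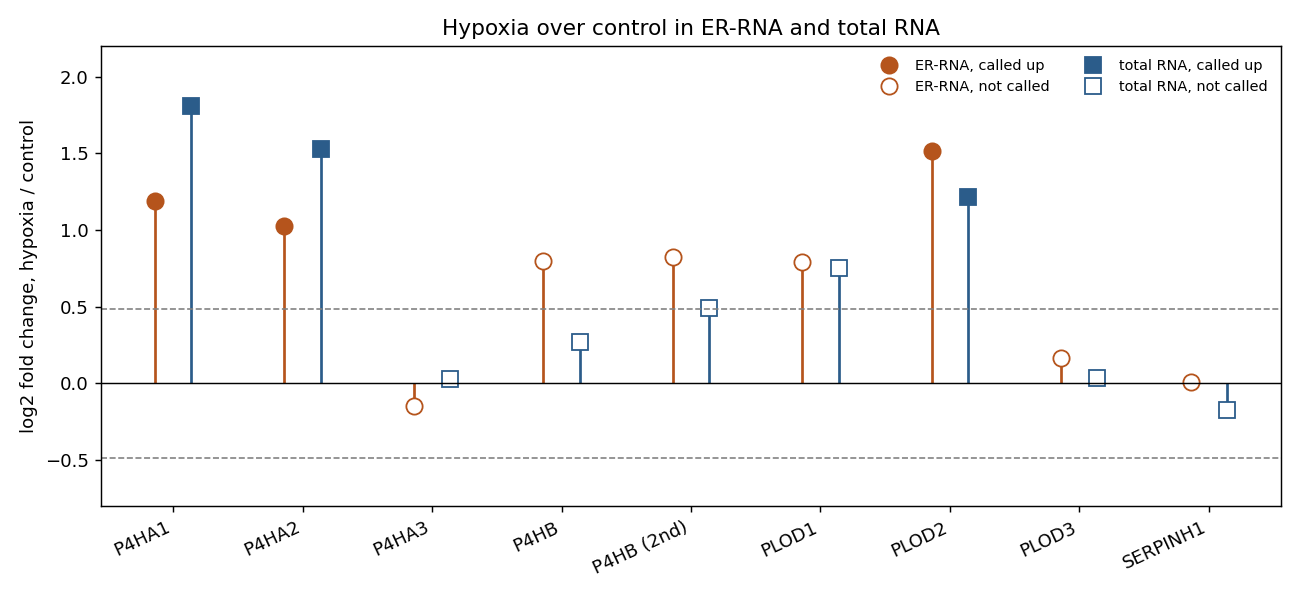
Log2 fold change of hypoxia over control (y axis) for each probe set in ER-RNA (orange circles) and total RNA (blue squares), filled where called up and open where not, with dashed lines at the fold threshold of 1.4 in either direction. Only P4HA1, P4HA2 and PLOD2 are filled, and both P4HB probe sets and PLOD1 lie above the dashed line in ER-RNA without a call, as do PLOD1 and the second P4HB probe set in total RNA.

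The fold changes of ER-RNA were then set against those of total RNA gene by gene, as the ER-RNA log2 fold change minus the total RNA log2 fold change. The rises of the α subunits were smaller in ER-RNA than in total RNA, with a difference of -0.62 for P4HA1 and -0.50 for P4HA2. P4HB had the larger log2 fold change in ER-RNA, with a difference of 0.53 for the brighter probe set and 0.33 for the other. PLOD2 had a difference of 0.30, PLOD3 of 0.13, SERPINH1 of 0.18, PLOD1 of 0.035 and P4HA3, which was not expressed, of -0.17. Over the 8 members the median difference was 0.083, beside -0.0081 over the 10851 genes expressed in both fractions.

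Ordered from the most positive difference among those 10851 genes, P4HB stood at place 329, PLOD2 at 1369, P4HA2 at 10220 and P4HA1 at 10535. The α and β subunits of the same enzyme therefore lay toward opposite ends of the order. With 1 pooled array per group the difference has no replicate check. Quantile normalization of the 4 arrays together changed its sign for PLOD1, to -0.078, for PLOD2, to -0.0035, and for the median, to -0.041, and kept it negative for P4HA1 and P4HA2 and positive for P4HB.

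**Figure D4:**
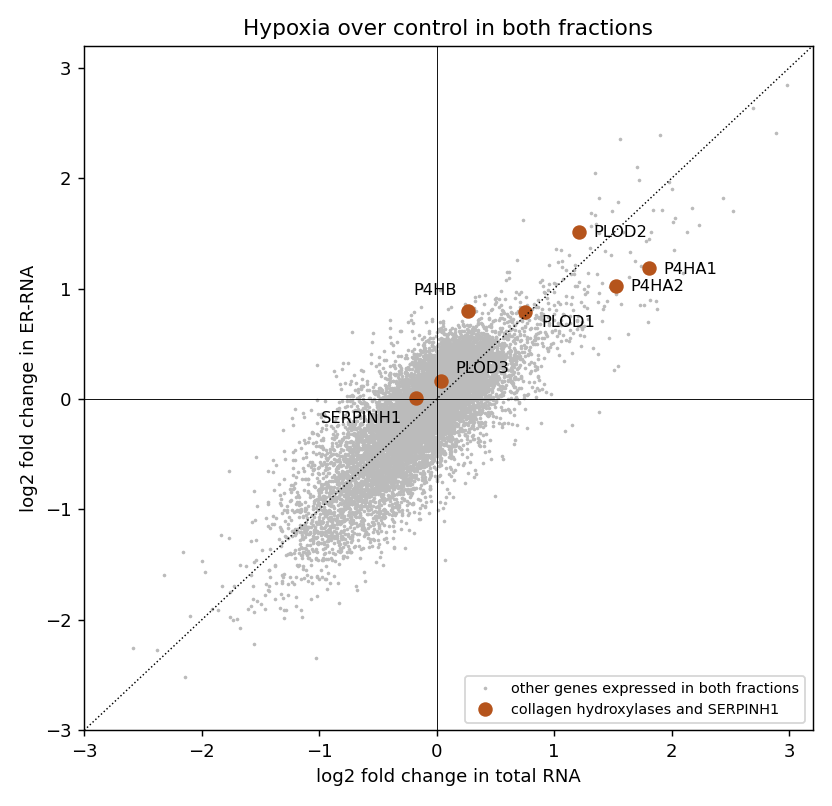
Log2 fold change of hypoxia over control in ER-RNA (y axis) against total RNA (x axis) for genes expressed in both fractions (grey) and for the 7 expressed members (orange), with equality dotted. P4HA1 and P4HA2 lie below the dotted line, P4HB and PLOD2 lie above it, and PLOD1, PLOD3 and SERPINH1 differ from it by at most 0.18.

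ER-RNA and total RNA values do not share a scale, because the array medians were 6.34 (ER-RNA, hypoxia) and 6.25 (ER-RNA, control), against 7.49 (total RNA, hypoxia) and 7.41 (total RNA, control). As deposited, the ER-RNA value minus the total RNA value had a median of -2.20 over the members in hypoxia and -2.15 under control conditions, beside -1.03 and -1.02 over the genes expressed in both fractions. After each array was centred on its median, the 7 expressed members still lay lower in ER-RNA, between -1.71 (PLOD3) and -0.30 (PLOD2) in hypoxia and between -1.83 (PLOD3) and -0.60 (PLOD2) under control conditions. The order of the members on this scale turned with quantile normalization, where the difference of PLOD2 was -1.26 in hypoxia, against -1.14 for SERPINH1, and -1.25 under control conditions, against -0.75 for P4HA1.

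These differences stand beside those of transcripts with a known place of translation. On the same centred scale, a list of secretory and membrane proteins, with 14 measured genes, had a median of -0.62 in hypoxia and -0.76 under control conditions. A list of cytosolic proteins, with 15 measured genes, had a median of 0.85 in hypoxia and 0.98 under control conditions. In the secretory list HSPA5 (0.510-fold) and PLAU (0.534-fold) were called down in hypoxia in total RNA, and in the cytosolic list ACTB (0.671-fold) was called down in ER-RNA. This order, with secretory transcripts below cytosolic ones in ER-RNA relative to total RNA, is the reverse of what the label ER-RNA would lead to, since secretory mRNAs are translated at the ER. The lists were not matched for signal. GAPDH of the cytosolic list had a log2 value of 14.14 in hypoxic ER-RNA and 14.13 in hypoxic total RNA. Whether signal level shapes the order was not tested. The paper assessed the purity of its ER fraction by marker proteins, a check on protein and not on RNA. It also has evidence on RNA. By quantitative PCR it reported more P4HA1 and P4HB mRNA in the ER fraction in hypoxia, and it checked array values of selected genes by the same method. By in situ hybridization it reported more overlap of P4HA1 mRNA with an ER marker in hypoxia. The members encode ER proteins and lay on the side of the secretory list, and no ER-RNA value here is read as an amount or a share of a transcript at the ER.

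To place P4HA1 and PLOD2 among other genes, the nearest patterns were found over the 4 arrays, as the Euclidean distance between log2 values centred on each gene's own mean, among 10844 expressed genes outside the members. The genes nearest to P4HA1 were ITPR1, an ER calcium channel (distance 0.15), DIPK2A (0.18), VLDLR, a lipoprotein receptor (0.21), HK2, which starts glycolysis (0.23), and JAM2, a junction protein (0.25). Within the members the closest pair was P4HA1 and P4HA2, at 0.36, and P4HA1 and PLOD2 were 0.68 apart. In ER-RNA, 4 of these 5 genes were called up, with HK2 at 1.85-fold not called. In total RNA all 5 were called up, between 3.12-fold for ITPR1 and 3.64-fold for HK2. Of all expressed probe sets, 1.55% were called up in ER-RNA and 3.27% in total RNA. The genes were picked for values close to those of P4HA1, so their calls largely follow from the choice and are no separate result.

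The genes nearest to PLOD2 were TLCD3A (0.22), POFUT4 (0.35), PAM, which amidates peptides in the secretory pathway (0.40), RNF122 (0.40) and KDM3A, an oxygen-dependent histone demethylase (0.41). Their fold changes ran between 1.93 for RNF122 and 3.07 for POFUT4 in ER-RNA, and between 1.66 for POFUT4 and 2.80 for KDM3A in total RNA. RNF122 in ER-RNA and POFUT4 in total RNA were not called. These genes were picked for values close to those of PLOD2, so their rises largely follow from the choice. The distances describe 4 values per gene and carry no replicate error.

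The steps around these enzymes were read from lists of the same pathway. Beside the counts called in these lists stand the shares over all expressed probe sets. These were 1.55% up and 7.31% down in ER-RNA, and 3.27% up and 6.39% down in total RNA. In lists this short, 0 called genes is near these shares and is no result about the list. The prolyl 3-hydroxylase complex of P3H1, CRTAP and PPIB modifies single prolines once the 4-hydroxylation is under way. Its list also holds the related genes P3H2, P3H3 and P3H4. In this list 0 of 6 genes were called in either fraction, with 5 expressed in ER-RNA and 6 in total RNA. CRTAP, the scaffold of the complex, was 1.24-fold in the ER fraction and 0.777-fold in total RNA. P3H1, the enzyme, was 1.05-fold in total RNA, and PPIB, the cyclophilin, was 0.756-fold in ER-RNA. The median over the list, as a log2 fold change, came to 0.23 in ER-RNA and to -0.20 in total RNA.

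Among the genes that act with or after the lysyl hydroxylases, FKBP14, an ER prolyl isomerase, was called down in both fractions, 1 of 4 measured members. Its log2 value was 5.98 in hypoxic ER-RNA, against 7.60 in control ER-RNA, and 7.73 in hypoxic total RNA, against 9.15 in control total RNA. It fell to 0.326 of the control level in ER-RNA (z-score -6.81) and to 0.374 in total RNA (z-score -5.83). The hypoxic ER-RNA value of FKBP14 lay below the array median of 6.34. Its call was held in 8 of the 10 settings in ER-RNA and in 9 in total RNA. FKBP10, the isomerase that assists PLOD2, was 1.28-fold in the ER fraction and 0.941-fold in total RNA and was not called. COLGALT1, which adds galactose to hydroxylysine, was 0.935-fold and 0.685-fold, and TMEM38B, an ER cation channel, was 0.530-fold and 0.634-fold, with a call down in ER-RNA in 5 of the 10 settings but not in the one reported.

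The oxygen-sensing hydroxylases that act on HIF belong to the same dioxygenase family but do not modify collagen. EGLN1 and EGLN3, which hydroxylate prolines of HIF-α, were called up in both fractions, 2 of 4 measured members. EGLN1 rose by a factor of 2.48 in ER-RNA and 2.18 in total RNA, and EGLN3 rose by 1.52 in ER-RNA and 1.59 in total RNA on the log2 scale. P4HTM, an ER membrane hydroxylase, was 1.03-fold in the ER fraction and 0.865-fold in total RNA, and HIF1AN, the asparaginyl hydroxylase, was 0.743-fold and 0.856-fold.

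Of the enzymes' substrates, 0 of 16 collagen chains were called in either fraction, with 14 of 16 expressed in each. For calls up this is near the shares over all expressed probe sets, 1.55% in ER-RNA and 3.27% in total RNA. The log2 fold change was above 0 in 16 of 16 in ER-RNA and 14 of 16 in total RNA. Of the 10851 genes expressed in both fractions, this held for 4937 in ER-RNA and 4764 in total RNA. Under median centring the counts of chains above 0 were 15 and 13. Their log2 fold changes had a median of 0.32 in ER-RNA and 0.24 in total RNA. The mostly unexpressed epithelial and blood markers had medians of 0.31 and 0.32 in ER-RNA, near that of the chains, and of 0.0044 and 0.022 in total RNA. COL4A2, a basement membrane chain, was highest among the expressed chains in ER-RNA, at 1.46-fold (z-score 1.87), and COL5A1, a fibrillar chain, was highest in total RNA, at 1.65-fold (z-score 2.76). COL4A1, the partner of COL4A2, was lowest in both, at 1.05-fold in the ER fraction and 0.791-fold in total RNA. COL5A1 was called up in total RNA with quantile normalization.

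Genes of procollagen export, which load the rigid trimer into large transport carriers, had lower values in hypoxia. All 9 had a log2 fold change below 0 in both fractions, as did most of the 10851 genes expressed in both, with a median of -0.32 in ER-RNA and -0.41 in total RNA, and quantile normalization or loess within the pair left 7 of 9 below 0 in total RNA. SAR1B, the GTPase that starts COPII coats, was called down in both fractions and fell to 0.422 of the control level in ER-RNA (z-score -5.13) and to 0.425 in total RNA (z-score -4.68). MIA2, a cargo receptor at ER exit sites, fell to 0.473 in total RNA (z-score -3.48) and was below the expression filter in ER-RNA, and its call was held in 7 of the 10 settings. The expressed genes nearest to their control level encode COPII coat proteins, SEC24D at 0.883-fold in ER-RNA and SEC31A at 0.959-fold in total RNA.

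The enzymes that trim procollagen outside the cell had 0 of 8 members called in either fraction, with 5 of 8 expressed in each. BMP1, which removes the C-propeptide, was 1.19-fold in total RNA, ADAMTS14 was 1.19-fold in ER-RNA, PCOLCE, the enhancer of BMP1, was 0.850-fold in ER-RNA, and ADAMTS3 was 0.538-fold in total RNA (z-score -2.84), with a call down in 5 of the 10 settings. The genes that supply the hydroxylases with ascorbate and iron also had 0 of 6 called in either fraction. SLC23A1, an ascorbate transporter, was 1.26-fold in ER-RNA, SLC23A2, the other ascorbate transporter, was 0.590-fold in total RNA (z-score -2.77), SLC11A2, an iron transporter, was 0.577-fold in ER-RNA (z-score -2.73, called down in 5 of the 10 settings), and SLC39A13, a zinc transporter, was 1.29-fold in total RNA.

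**Figure D5:**
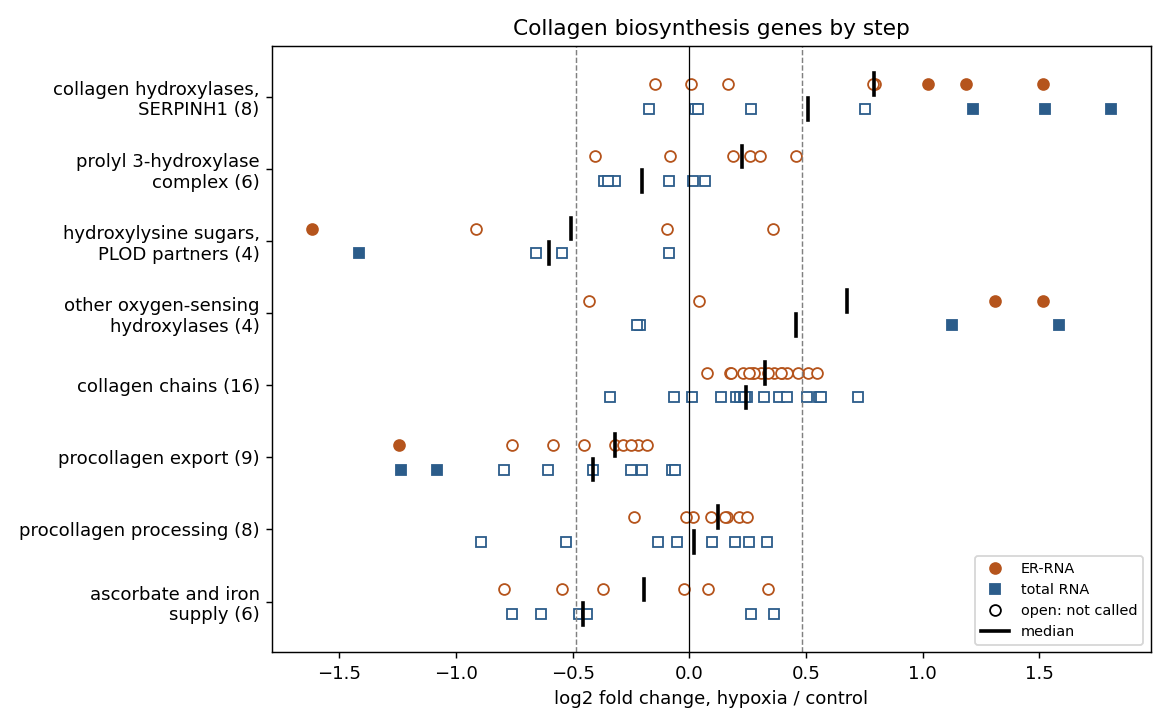
Log2 fold change of hypoxia over control (x axis) for the members and for 7 lists of collagen biosynthesis and related genes, each point a gene, with ER-RNA as orange circles above total RNA as blue squares, filled where called, black bars at the medians and dashed lines at the fold threshold of 1.4. Called rises appear among the members and the oxygen-sensing hydroxylases, and called falls are FKBP14, SAR1B and MIA2.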

How the data were processed

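Total RNA and ER-RNA of HT1080 cells were measured on 4 arrays. The log2 values were deposited as the authors had made them by RMA, with Partek 6.4 named in the submitters' processing notes. It is not stated in the labels or methods whether all 4 arrays went through RMA together.

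Genes were named from the platform annotation, and of the 19460 probe sets with a single gene name 19429 were matched to a RefSeq identifier. A further 1754 name several genes and 12083 were unnamed here, and these entered only the background. Where a gene had several probe sets, the one with the highest mean was used, and both are shown for P4HB. Calls followed the thresholds of the study's methods, with the SD taken from a loess (span 0.75, degree 2) of the SD of each pair on its mean over 17581 expressed probe sets in ER-RNA and 17537 in total RNA (R 4.3.3, limma 3.58.1, matrixStats 1.5.0). In ER-RNA the loess gave 1 probe set no positive SD, and it stayed uncalled. The paper fitted its SD model for treatment and control groups separately, so the calls given here are not its own calls. HK2 in ER-RNA, for example, is marked as significant in the paper and was not called here. The calling script was tested on simulated data. Each value rests on a single array, and the number of arrays limits its precision.

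The text names all 8 members, the called and the highest and lowest expressed members of each list in each fraction (of the marker and fraction lists the called ones), and the 5 nearest genes of P4HA1 and PLOD2; FKBP10, COLGALT1, TMEM38B and P4HTM are given besides. The members and lists were chosen with earlier results of these data known. The alternatives varied the scaling, the expression filter, the SD, the fold threshold and the probe set.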

Additional observations from a re-analysis of the deposited data

Results flagged for a closer look

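P4HA3 and SERPINH1 had fold changes of opposite sign in ER-RNA and total RNA. P4HA3 had a log2 fold change of -0.15 in ER-RNA and 0.026 in total RNA, and its values lay below the median of every array. SERPINH1 had a log2 fold change of 0.0091 in ER-RNA and -0.17 in total RNA. All 4 values lay inside the fold threshold, and with 1 pooled array per group this contrast between the fractions was not tested.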

How the results depend on the processing

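The count of members called up in ER-RNA was 3 as reported and 5 with quantile normalization of the 4 arrays or with the fold threshold alone, where P4HB and PLOD1 were added. It was 4 with loess within the pair, 2 with median centring, and 1, PLOD2, with the SD from the scaled median absolute deviation. The count of all probe sets called up in ER-RNA moved too. It was 273 as reported, 389 with quantile normalization, 1528 with the fold threshold alone, 316 with loess within the pair, 194 with median centring and 79 with the scaled median absolute deviation. In total RNA the count stayed between 3 and 4 over all 9 alternatives, with PLOD1 as the added gene. Fold changes changed sign under another scaling for SERPINH1 in ER-RNA, to -0.075 with median centring, for PLOD3 in total RNA, to -0.042 with median centring, and for P4HA3 in total RNA, to -0.051 with median centring, -0.086 with quantile normalization and -0.067 with loess within the pair. None of these was called. The difference of the log2 fold changes, ER-RNA minus total RNA, changed sign with quantile normalization to -0.041 for the median over the members, to -0.078 for PLOD1 and to -0.0035 for PLOD2. The median ER-RNA minus total RNA value depends on the scale, and was -1.06 in hypoxia and -0.999 under control conditions with median centring, and -1.56 in hypoxia and -1.33 under control conditions with quantile normalization. The causes of these changes were not tested, beyond the lower array medians of ER-RNA that centring removes.

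Of 146 values of a member in a fraction under an alternative, 130 kept their direction and call, 8 gained a call, 3 lost it and 5 changed sign. Only another scaling or the second P4HB probe set alters a fold change, so under the other alternatives the direction could not change. All 5 sign changes came from another scaling. Over the 10 settings, the number of all probe sets called up ran between 79 and 1528 in ER-RNA and between 203 and 1718 in total RNA. No paired analysis was possible because each group has 1 array. The precision of every value is limited by this single pooled array, and P4HA3 is limited by its low signal.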
